A study of Mus musculus with 4 samples.

Results

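The genes described here encode the receptors through which T cells sense interleukin-1 (IL-1) family cytokines and epithelial alarmins, with the adaptor gene Myd88. The 10 members were taken by symbol, and all 10 were found among the 23283 symbols with a value in every library. They are the IL-33 receptor chain Il1rl1 (ST2), the IL-18 receptor chains Il18r1 and Il18rap, the IL-1 receptors Il1r1 and Il1r2, the shared accessory chain Il1rap, the IL-25 receptor chain Il17rb, the thymic stromal lymphopoietin (TSLP) receptor chains Crlf2 and Il7r, and Myd88. RNA was sequenced from Th2 cells, the helper T cells that make IL-4, IL-5 and IL-13, grown from splenic CD4 T cells of C57BL/6 mice. The design text places Menin, the product of Men1, among Trithorax group proteins, regulators of chromatin. The 4 groups were Menin KO and wild type (WT) cells after 5 days, and Menin KO and WT cells in a longer culture named as 3 weeks, with 1 library each.

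In the 5-day cultures IL-2 was given at 15 ng/ml together with 10 ng/ml of IL-4. Cells of the longer cultures were first treated likewise, rested for 2 days with no cytokine added, and were then stimulated again for 5 days through the T cell receptor on plate-bound antibody, while IL-2 was supplied and IL-4 was blocked by antibody. The labels do not say how the remainder of the 3 weeks was spent. How and in which cells Menin was deleted, and how many animals gave cells, is likewise not given in the labels. With 1 library a group no difference below has a replicate check and none is tested. Intervals in brackets are 95% counting intervals (exact Clopper-Pearson), which cover counting error only.

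IL-33, IL-18 and IL-1 each bind a receptor chain of their own, which then pairs with an accessory chain. The paired tails carry a Toll/IL-1 receptor (TIR) domain, recruit MyD88 and IRAK kinases and switch on NF-kappaB. In mice, ST2 marks Th2 cells, mast cells and type 2 innate lymphoid cells, whereas the IL-18 receptor is prominent on Th1 and natural killer (NK) cells. Alarmins released by damaged epithelium, namely IL-33, IL-25 and TSLP, drive type 2 responses in the lung and gut.

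The genotype contrast differed among these receptors in the longer culture. The IL-18 receptor chains Il18r1 and Il18rap and the TSLP receptor chain Crlf2 were at least 2-fold higher in KO than in WT cells, and the IL-33 receptor chain Il1rl1 and the IL-25 receptor chain Il17rb were at least 2-fold lower. At 5 days none of the 10 reached 2-fold in either direction. Calls were rarer at that time over all symbols abundant enough to be compared, with 2.77% higher and 0.82% lower, against 7.97% and 8.19% at 3 weeks. The KO 3-week value of Il17rb rests on about 4 reads. A constant, the pseudocount, was added to each level before taking a ratio. With 5 in place of 1 as this constant, only Il18rap kept its 3-week call. In the longer culture the Il18rap level was 4.73 times that of WT (4.40 to 5.07), and the Il1rl1 level was 35.6% of WT (28.7% to 44.1%).

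Sequences upstream of the IL-33, IL-18 and IL-25 receptor genes are shown because these 4 genes, 3 of them neighbours on chromosome 1, stood on opposite sides of the genotype contrast. Each is the 250 bases before an annotated start, on the gene's own strand, from RefSeq with build GRCm38.p6. All 10 members had at least 1 such window there, 14 windows in all. Capitals mark GATA motifs (AGATAA or TGATAA) and STAT motifs (TTCNNNGAA) on either strand.
Il1rl1 upstream start (chr1:40429320-40429569, plus strand): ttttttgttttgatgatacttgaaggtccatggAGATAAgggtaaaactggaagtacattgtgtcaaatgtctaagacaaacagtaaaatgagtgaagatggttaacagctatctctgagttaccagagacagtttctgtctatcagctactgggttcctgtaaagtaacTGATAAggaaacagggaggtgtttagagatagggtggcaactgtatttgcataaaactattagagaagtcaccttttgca
Il1rl1 downstream start (chr1:40439379-40439628, plus strand): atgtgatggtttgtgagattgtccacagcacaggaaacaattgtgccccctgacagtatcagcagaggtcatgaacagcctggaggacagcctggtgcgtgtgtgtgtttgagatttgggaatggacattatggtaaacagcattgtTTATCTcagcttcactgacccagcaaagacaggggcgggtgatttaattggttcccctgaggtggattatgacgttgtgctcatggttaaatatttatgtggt
Il18r1 (chr1:40465756-40466005, plus strand): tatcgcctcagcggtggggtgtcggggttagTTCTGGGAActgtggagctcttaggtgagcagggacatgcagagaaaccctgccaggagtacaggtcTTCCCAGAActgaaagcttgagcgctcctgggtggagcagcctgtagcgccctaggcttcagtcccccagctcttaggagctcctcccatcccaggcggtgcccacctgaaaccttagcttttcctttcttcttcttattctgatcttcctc
Il18rap (chr1:40515112-40515361, plus strand): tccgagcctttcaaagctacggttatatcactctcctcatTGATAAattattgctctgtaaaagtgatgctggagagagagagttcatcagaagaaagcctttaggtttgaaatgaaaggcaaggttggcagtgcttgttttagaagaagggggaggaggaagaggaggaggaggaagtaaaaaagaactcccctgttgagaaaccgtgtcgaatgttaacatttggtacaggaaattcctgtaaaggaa
Il17rb (chr14:30008897-30009146, minus strand): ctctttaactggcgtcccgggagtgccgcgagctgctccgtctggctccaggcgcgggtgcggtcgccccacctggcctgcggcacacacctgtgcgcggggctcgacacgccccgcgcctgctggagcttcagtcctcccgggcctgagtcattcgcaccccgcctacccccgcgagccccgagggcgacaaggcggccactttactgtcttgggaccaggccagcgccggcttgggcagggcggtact

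The window before the upstream start of Il1rl1 held 2 GATA motifs, whose first bases lay 217 and 80 bases before the start, and the window before its downstream start held 1, on the opposite strand. Il18rap held 1 GATA motif. The Il18r1 window shown held 2 STAT motifs and no GATA motif, and 2 further Il18r1 windows, at starts lying closer to Il1rl1, held neither. Il17rb, in a window of 72% G and C, held neither motif and no T-box motif (GGTGTGA). Members not shown held such motifs too: Il1r2 held 1 GATA and 1 STAT motif, Il7r 1 STAT motif, and Myd88 1 STAT and 1 T-box motif. The windows of Il1r1, Il1rap and Crlf2 held none of these motifs. Among all 32851 windows of this length, 16.6% held a GATA motif, 7.02% a STAT motif and 3.33% a T-box motif. A match of letters is a description and shows no binding.

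Men1 checked the labels: its level was 10.3 FPKM in KO 5-day, 32.8 FPKM in WT 5-day, 5.88 FPKM in KO 3-week and 25.4 FPKM in WT 3-week. FPKM scales read fragments by transcript length and by the mapped total of the library. Depth inferred from the steps between low values was about 20690000 to 23530000 reads a library. The 12 T cell identity genes summed to 2071 FPKM in KO 5-day, 2142 in WT 5-day, 2626 in KO 3-week and 2017 in WT 3-week. At 5 days 0 of the 12 were at least 2-fold higher in KO and 1 lower, Cd5, at 40.7 FPKM in KO and 112 FPKM in WT. All compared symbols gave 2.77% higher and 0.82% lower there. At 3 weeks 1 of the 12 was at least 2-fold higher in KO (Cd3g) and 2 lower (Cd5 and Cd28), beside 7.97% higher and 8.19% lower of all compared symbols. Cd3g stood at 1028 FPKM in KO 3-week and 389 FPKM in WT 3-week, and Cd5 at 3.51 and 81.3 FPKM. Gata3, which defines Th2 cells, stood at 69.8 and 72.8 FPKM in KO and WT cells at 5 days, and at 45.9 and 93.8 FPKM in KO and WT cells at 3 weeks. Il4 stood at 9.71 and 6.41 FPKM at 5 days and at 6.40 and 21.9 FPKM at 3 weeks, in the same order of genotypes, so the markers of the labelled cell type were present in all 4 libraries. Gata3 and Il4 were chosen for this check with their values known.

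**Figure D1:**
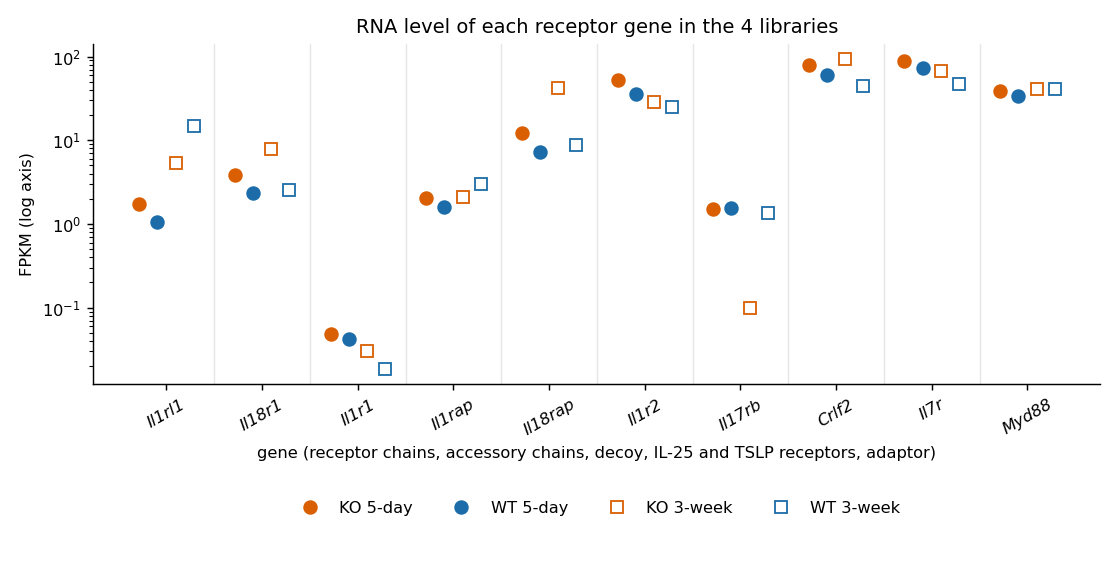
RNA level in FPKM (vertical log axis) of each gene (horizontal axis) in the 4 libraries, 1 point a library, with KO in orange, WT in blue, 5 days filled and 3 weeks open. Il1rl1 is highest in WT 3-week at 14.9 FPKM, Il18rap is highest in KO 3-week at 41.6 FPKM, and Il17rb is lowest in KO 3-week at 0.0994 FPKM.

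Il1rl1 encodes ST2, the chain that binds IL-33. Its level was 1.74 FPKM in KO 5-day, 1.05 FPKM in WT 5-day, 5.32 FPKM in KO 3-week and 14.9 FPKM in WT 3-week. Both longer cultures stood above both 5-day cultures, and the WT 3-week library stood highest. Within the longer culture KO cells had 35.6% of the WT level, a log2 ratio of -1.33 on the log2(FPKM + 1) scale used for all log2 ratios here. At 5 days the ratio of KO to WT was 1.66, with an interval that includes 1 (0.961 to 2.93), from about 40 and 22 reads. The gene makes a membrane receptor and a soluble form that binds IL-33 without signalling, and a gene-level value does not separate them.

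Against the 5-day culture, the 3-week culture had 14.2 times the Il1rl1 level in WT cells (9.28 to 23.1) and 3.06 times in KO cells (2.13 to 4.52). These ratios share libraries with the genotype contrasts. Time cannot be told apart here from the second stimulation or from the change of cytokines and antibody. In WT cells Il1rl1 was the 1 member at least 2-fold higher at 3 weeks and none was lower, where 3.03% of compared symbols were higher and 2.83% lower.

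The IL-18 receptor has a ligand-binding chain, Il18r1, and an accessory chain, Il18rap, and both are needed for signalling. Il18r1 was at 3.88 FPKM in KO 5-day, 2.35 FPKM in WT 5-day, 7.82 FPKM in KO 3-week and 2.54 FPKM in WT 3-week. Il18rap was at 12.3 FPKM in KO 5-day, 7.22 FPKM in WT 5-day, 41.6 FPKM in KO 3-week and 8.80 FPKM in WT 3-week. For both chains the KO level exceeded the WT level at each time, and KO 3-week was the highest library. The FPKM ratio of KO to WT was 1.66 for Il18r1 (1.24 to 2.26) and 1.70 for Il18rap (1.55 to 1.86) at 5 days, and 3.08 (2.39 to 3.97) and 4.73 (4.40 to 5.07) at 3 weeks. On the log2(FPKM + 1) scale the 3-week ratios were 1.32 and 2.12.

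Between the cultures the IL-18 receptor genes stood further apart in KO cells than in WT cells. Il18rap at 3 weeks was 3.39 times its 5-day level in KO cells (3.19 to 3.61) and 1.22 times in WT cells (1.10 to 1.34). For Il18r1 these ratios were 2.01 in KO (1.62 to 2.51) and 1.08 in WT (0.789 to 1.52), where the interval includes 1. The difference between genotypes was not tested.

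Within a library the RNA level of Il18r1 can be set against that of Il1rl1 as a ratio of FPKM, which does not give the balance of the receptor proteins. The ratio was 2.23 in both KO 5-day and WT 5-day, where Il1rl1 had about 40 and 22 reads. In the longer culture it was 1.47 in KO and 0.170 in WT. The WT 3-week library was thus the only 1 of the 4 in which Il1rl1 stood above Il18r1. Il18rap over Il1rl1, which uses the same Il1rl1 values, was likewise below 1 only in WT 3-week. It was 7.04 in KO 5-day, 6.88 in WT 5-day, 7.81 in KO 3-week and 0.589 in WT 3-week. In KO cells the Il18r1 ratio was lower at 3 weeks than at 5 days, whereas the Il18rap ratio was slightly higher.

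NK cells also carry the IL-18 receptor, and their markers were measured beside these genes. The 6 listed NK cell genes summed to 2.23 FPKM in KO 5-day, 0.179 in WT 5-day, 4.01 in KO 3-week and 0.0288 in WT 3-week. None of the 6 had the mean of 1 FPKM needed to be compared. Without that filter, Klrb1c at 5 days, and Klrb1c and Klrc2 at 3 weeks, were at least 2-fold higher in KO and 0 were lower, where 317 of all 23283 symbols were higher and 95 lower at 5 days, and 992 higher and 917 lower at 3 weeks. The defining NK cell gene Ncr1 reached 0.244 FPKM in KO 5-day but 0.110 FPKM in KO 3-week, while both WT libraries list it at 0. Most of the sum was Klrb1c, at 1.51 FPKM in KO 5-day, 0.119 in WT 5-day, 1.96 in KO 3-week and 0.0174 in WT 3-week, and Klrc2, at most 1.83 FPKM. CD8 T cell genes (2 listed) summed to 5.70 FPKM in KO 5-day, 4.38 in WT 5-day, 3.77 in KO 3-week and 2.04 in WT 3-week. Cd8b1 made up most of each sum. The other gene, Cd8a, differed more by genotype. Its 5-day level was 0.540 FPKM for KO against 0.0330 FPKM for WT, from about 34 and 2 reads. Its 3-week level was 0.653 FPKM for KO, from about 39 reads, against 0 for WT. The part of other cells in the receptor values was not tested, and in such bulk samples fewer cells of a type cannot be told apart from less RNA in each.

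Il1r1, the signalling receptor of IL-1, lay at the edge of detection in all libraries. It stood at 0.0484 FPKM in KO 5-day, 0.0422 in WT 5-day, 0.0305 in KO 3-week and 0.0186 in WT 3-week, about 2 to 5 reads a library. No ratio between genotypes can be read at this depth. It is the 1 member under the mean of 1 FPKM that a symbol needed to be compared. Il17a and Il23r, which mark Th17 cells, the helper cells in which Il1r1 is known to act, were listed at 0 in every library.

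Il1r2 encodes a decoy receptor, which binds IL-1 without a TIR tail. Its level was 53.2 FPKM in KO 5-day, 35.4 FPKM in WT 5-day, 28.9 FPKM in KO 3-week and 24.7 FPKM in WT 3-week. KO exceeded WT at both times, 1.50-fold at 5 days (1.38 to 1.63) and 1.17-fold at 3 weeks (1.05 to 1.29), and both 5-day libraries stood above both 3-week libraries. Gm16894, an antisense gene that overlaps Il1r2, was at most 1.22 FPKM. The labels do not say whether strand was used in counting.

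Il1rap is the accessory chain shared by ST2 and the IL-1 receptor. It stood at 2.02 FPKM in KO 5-day, 1.59 FPKM in WT 5-day, 2.12 FPKM in KO 3-week and 3.04 FPKM in WT 3-week. Like Il1rl1 it was highest in WT 3-week, but its KO level there was 69.7% of WT (53.1% to 90.1%) and did not reach 2-fold. At 5 days its ratio of 1.27 had an interval that includes 1 (0.921 to 1.75). Per length, Il1rl1 over Il1rap was 0.863 in KO 5-day, 0.660 in WT 5-day, 2.51 in KO 3-week and 4.91 in WT 3-week.

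Il17rb encodes the chain of the IL-25 receptor that binds IL-25, and pairs with the product of Il17ra. Il17rb was low throughout, at 1.51 FPKM in KO 5-day, 1.54 FPKM in WT 5-day, 0.0994 FPKM in KO 3-week and 1.36 FPKM in WT 3-week. The other 3 libraries lay close together, and KO 3-week lay far below, with about 4 reads against about 60 in WT 3-week. KO cells had 7.29% of the WT level (1.92% to 19.6%), a log2 ratio of -1.10 that a pseudocount of 1 FPKM holds close to 0 at such levels. At 5 days the KO level was 97.9% of WT (68.3% to 143%). Actr8, which overlaps Il17rb on the opposite strand, stood at 12.6 FPKM in KO 3-week and at no less than 11.5 FPKM in any library. Il17ra, the shared partner chain, did not go the same way, at 43.0 FPKM in KO 3-week and 26.5 FPKM in WT 3-week.

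**Figure D2:**
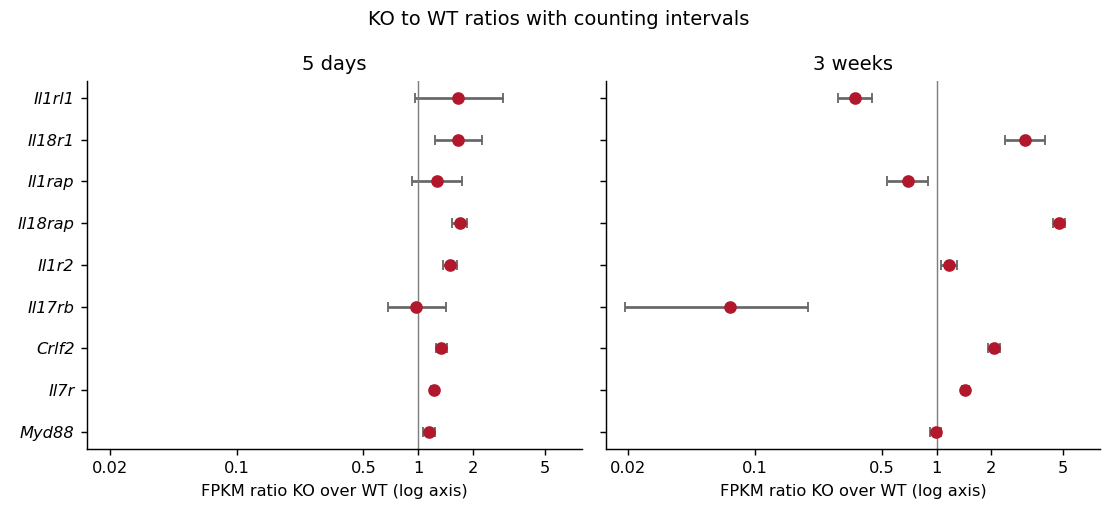
FPKM ratio of KO over WT (horizontal log axis) for 9 genes at 5 days (left) and 3 weeks (right), with 95% counting intervals as bars; Il1r1 is left out because its reads were too few. At 3 weeks Il17rb and Il1rl1 lie furthest below 1, at 0.0729 and 0.356, and Il18rap lies furthest above, at 4.73.

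Crlf2 and Il7r together form the receptor of TSLP, and Il7r with Il2rg forms that of IL-7. Crlf2 stood at 80.3 FPKM in KO 5-day, 59.9 FPKM in WT 5-day, 92.4 FPKM in KO 3-week and 44.6 FPKM in WT 3-week. Il7r stood at 88.6 FPKM in KO 5-day, 72.1 FPKM in WT 5-day, 67.0 FPKM in KO 3-week and 46.5 FPKM in WT 3-week. Both chains were among the most abundant members, and for both KO exceeded WT at each time. The Crlf2 ratio was 1.34 at 5 days (1.25 to 1.44) and 2.07 at 3 weeks (1.93 to 2.22), and its 3-week log2 ratio of 1.03 lay just past the 2-fold mark. For Il7r the ratio was 1.23 at 5 days (1.18 to 1.28) and 1.44 at 3 weeks (1.38 to 1.50). Between cultures the 2 chains parted in KO cells, where Crlf2 at 3 weeks was 1.15 times its 5-day level (1.08 to 1.22) and Il7r 75.6% (72.8% to 78.5%). In WT cells both were lower at 3 weeks, Crlf2 at 74.5% (68.9% to 80.6%) and Il7r at 64.5% (61.8% to 67.4%).

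Myd88, the adaptor of the IL-1, IL-18 and IL-33 receptors, stood at nearly the same level in both genotypes in the longer culture. Its level was 38.4 FPKM in KO 5-day, 33.4 FPKM in WT 5-day, 40.5 FPKM in KO 3-week and 40.9 FPKM in WT 3-week. The KO to WT ratio was 1.15 at 5 days (1.06 to 1.24) and 0.990 at 3 weeks (0.923 to 1.06). Its direction at 3 weeks depended on scaling, with a log2 ratio of -0.01 as deposited, 0.09 with median-of-ratios scaling and 0.18 with upper-quartile scaling. Acaa1a, on the opposite strand, overlaps Myd88 and stood between 22.0 and 28.5 FPKM.

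By level per length, Il7r, Crlf2, Il1r2 and Myd88 held the first 4 ranks in both 5-day libraries and in WT 3-week. In KO 3-week Il18rap moved to the third rank, and its 41.6 FPKM lay close to the 40.5 FPKM of Myd88. Il1rl1 held the fifth rank in WT 3-week, the seventh in KO 3-week, the eighth in KO 5-day and the ninth in WT 5-day. All 10 summed to 282 FPKM in KO 5-day, 215 in WT 5-day, 286 in KO 3-week and 188 in WT 3-week, sums that the most abundant genes dominate.

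Over the whole list, 0 of 10 members reached 2-fold higher and 0 reached 2-fold lower in KO at 5 days, where 2.77% of the 10973 compared symbols were higher and 0.82% lower. The median log2 ratio of the 10 was 0.36, against -0.02 over all compared symbols. Of the 10, 9 lay above 0, where 5061 of the 10973 compared symbols did. The 9 include Il1r1, whose ratio cannot be read at its depth, and Il1rl1 and Il1rap, whose intervals include 1. At 3 weeks 3 of 10 were higher and 2 lower, where 7.97% of compared symbols were higher and 8.19% lower. Their median was 0.12, against -0.08. The direction of the all-symbol median depended on scaling: upper-quartile scaling moved it from -0.08 to 0.08 and the calls from 874 higher and 899 lower to 1120 higher and 575 lower. The 5 members kept their calls under all 3 scalings tried. With a pseudocount of 5 FPKM, 1 was higher (Il18rap) and 0 lower, and a filter at a mean of 5 FPKM left out Il18r1 and Il17rb.

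The difference between the genotype ratios at the 2 times, 3 weeks minus 5 days, was at least 2-fold higher for Il18rap (1.43 on the log2 scale) and at least 2-fold lower for Il1rl1 (-1.75) and Il17rb (-1.08). Of all compared symbols 4.53% were higher and 4.7% lower on this measure. With 1 library a group it could not be tested. Among KO cells alone, Il1rl1 and Il18rap were at least 2-fold higher and Il17rb at least 2-fold lower at 3 weeks than at 5 days, where 4.35% of compared symbols were higher and 4.39% lower. With a pseudocount of 5 FPKM only Il18rap kept its call in that contrast, and a filter at a mean of 5 FPKM left out Il17rb.

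**Figure D3:**
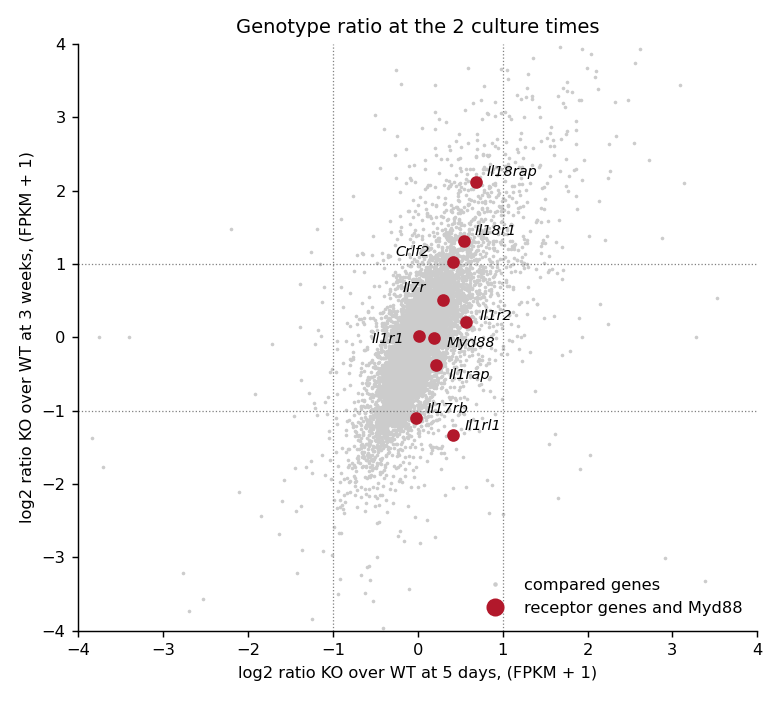
Log2 ratio of KO over WT at 5 days (horizontal axis) and at 3 weeks (vertical axis) on the log2(FPKM + 1) scale, with the 10 genes in red, compared genes in grey, dotted lines at 2-fold, and 125 genes beyond the axes not drawn. All 10 genes lie between the vertical 2-fold lines, while Il18rap, Il18r1 and Crlf2 lie above the upper horizontal line and Il17rb and Il1rl1 below the lower one.

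Of the members, 5 lie close together on the plus strand of chromosome 1 (GRCm38), within 477627 bases, in the order Il1r2, Il1r1, Il1rl1, Il18r1 and Il18rap, with Il1rl2 between Il1r1 and Il1rl1. Il1rl1 (40429570 to 40465415) ends 136 bases before Il18r1 (40465552 to 40500854) begins. Il18rap follows at 40515362 to 40551705. These adjacent genes of 1 strand stood on opposite sides at 3 weeks, with log2 ratios of -1.33 for Il1rl1, 1.32 for Il18r1 and 2.12 for Il18rap. Without a stated annotation, how reads near the boundary of Il1rl1 and Il18r1 were assigned was not tested.

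Of 17 symbols in the files that lie within 500000 bases of this cluster, 7 had a mean of at least 1 FPKM, 5 of them in the IL-1 receptor family. Il1rl2, the IL-36 receptor gene, had 0.930 FPKM in KO 5-day, 2.74 FPKM in WT 5-day, 0.238 FPKM in KO 3-week and 0.386 FPKM in WT 3-week, below 2-fold on the log2 scale at both times (-0.95 and -0.16). Outside the family, Map4k4 on one side stood at 41.7 FPKM in KO 3-week and 38.9 FPKM in WT 3-week. Rnf149 stood at 16.1 FPKM in KO 3-week and 7.87 FPKM in WT 3-week, a log2 ratio of 0.95. On the side of Il18rap, Slc9a4, Slc9a2, Mfsd9 and Tmem182 were each under 1 FPKM in every library. Slc9a2 stood at 0.856 FPKM in KO 3-week and 0 in WT 3-week, and Mfsd9 at 0.955 and 0.372 FPKM. Slc9a4 was at most 0.0117 FPKM and Tmem182 was listed at 0 in every library. The remaining members lie on chromosome 16 (Il1rap), 14 (Il17rb), 5 (Crlf2), 15 (Il7r) and 9 (Myd88).

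**Figure D4:**
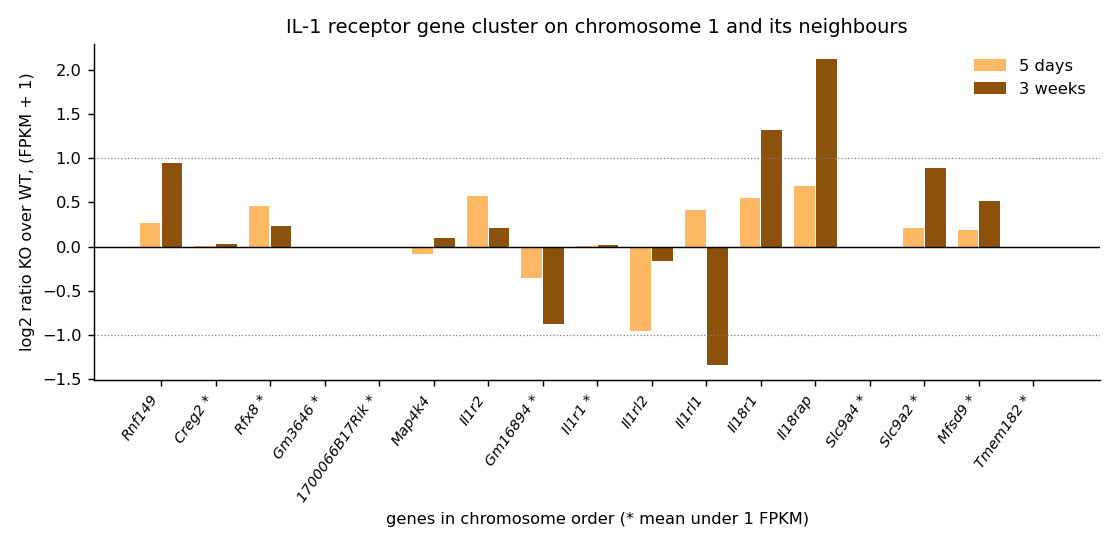
Log2 ratio of KO over WT on the log2(FPKM + 1) scale (vertical axis) at 5 days (light bars) and 3 weeks (dark bars) for the 17 genes in and near the chromosome 1 cluster, in chromosome order, with dotted lines at 2-fold. At 3 weeks Il1rl1 is at -1.33 while its neighbours Il18r1 and Il18rap are at 1.32 and 2.12.

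Genes with the most similar pattern were sought over the 4 libraries among 8136 or 8137 genes with a mean of at least 5 FPKM, by the Euclidean distance between centred log2(FPKM + 1) values. For Il18rap these were Pld3 (distance 0.06), Dennd4a (0.14) and Prkx (0.15). Pld3 stood at 72.7 FPKM in KO 5-day, 43.4 in WT 5-day, 238 in KO 3-week and 51.4 in WT 3-week. For Il18r1 they were Nelf (0.05), Cerk (0.06) and the integrin gene Itgb2 (0.08). For Il1rl1 they were Tnfsf8 (0.47), which encodes the ligand of CD30, Akr1c13 (0.53) and 4930506M07Rik (0.57), so its pattern had no match as close as those of the IL-18 receptor chains. Tnfsf8 stood at 6.85 FPKM in KO 5-day, 5.65 in WT 5-day, 13.4 in KO 3-week and 33.6 in WT 3-week.

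The ligands of these receptors were barely present in the cells. Of 12 ligand genes with a symbol in the files, only Il18 had a mean of at least 1 FPKM, at 1.26 FPKM in KO 5-day, 0.650 in WT 5-day, 0.906 in KO 3-week and 1.34 in WT 3-week. Il33 was at most 0.0410 FPKM, Tslp at most 0.103 FPKM and Il25 was listed at 0 in every library. Il7 was at 1.06 FPKM in KO 3-week and 0.427 FPKM in WT 3-week.

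Other IL-1 receptor family genes and soluble inhibitors were described from 6 symbols, of which 3 were compared, and 0 of 3 reached 2-fold on the log2(FPKM + 1) scale in either direction at either time, beside 2.77% higher and 0.82% lower of all compared symbols at 5 days and 7.97% and 8.19% at 3 weeks. The pseudocount decides this for Il1rl2 at 5 days, where its KO level was 34.0% of WT (22.7% to 50.1%). Sigirr, a TIR receptor that restrains ST2 and IL-1 signalling, stood at 50.6 FPKM in KO 5-day, 46.0 in WT 5-day, 35.4 in KO 3-week and 45.8 in WT 3-week. Il18bp, which encodes the secreted protein that neutralizes IL-18, stood at 5.51 FPKM in KO 3-week and 3.10 FPKM in WT 3-week, 1.78-fold apart (1.34 to 2.37).

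Of 18 compared genes of MyD88 and IRAK signalling, 0 were at least 2-fold higher and 0 lower at 5 days (median -0.02). At 3 weeks 2 were higher and 2 lower (median 0.01), shares to be read against the 7.97% and 8.19% of all compared symbols. The kinase gene Irak2 was at 8.71 FPKM in KO 5-day, 4.93 in WT 5-day, 18.6 in KO 3-week and 4.45 in WT 3-week. Tnfaip3, which encodes A20, an enzyme that limits NF-kappaB signalling, was at 12.0 FPKM in KO 5-day, 7.62 in WT 5-day, 18.7 in KO 3-week and 4.60 in WT 3-week. Both were highest in KO 3-week, 4.19 times (3.51 to 5.00) and 4.06 times (3.66 to 4.52) the WT 3-week level. Map3k8, a kinase gene, was at 6.73 FPKM in KO 3-week and 17.7 in WT 3-week, and Irak1bp1 at 0.382 and 4.72 FPKM, which made these the 2 lower genes. Tirap, an adaptor gene, stayed under the call at 3 weeks through the pseudocount (log2 ratio 0.93), with 2.66 FPKM in KO and 0.924 FPKM in WT, an FPKM ratio of 2.87 (1.95 to 4.46). Irak1, Irak4, Traf6 and Map3k7 did not reach 2-fold at either time.

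Partner chains and proximal signalling genes of the IL-25, TSLP and IL-7 receptors were described from 13 symbols, 10 of them compared. None of the 10 reached 2-fold at 5 days, and at 3 weeks 0 were higher and 1 lower (median 0.31), a share near the 8.19% of all compared symbols. The lower one was Stat5b, a transcription factor gene that acts below IL-7 and TSLP, at 11.8 FPKM in KO 3-week and 27.7 FPKM in WT 3-week. For its relative Stat5a the levels were 12.4 FPKM in KO and 25.3 FPKM in WT (log2 ratio -0.97). Il2rg stood at 344 FPKM in KO 3-week and 282 FPKM in WT 3-week, and Jak1, Jak2 and Jak3 each lay within 2-fold. Il17rd of this list was not compared, with a mean of 0.588 FPKM. Without that filter it was at least 2-fold higher in KO at 3 weeks, where 992 of all 23283 symbols were higher and 917 lower. It stood at 1.84 FPKM in KO and 0.163 FPKM in WT, from about 79 and 8 reads, a ratio of 11.3 (5.20 to 25.8).

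Most Toll-like receptors also signal through MyD88, and 4 of 12 were compared. At 5 days 1 of 4 was at least 2-fold higher, Tlr4, at 3.26 FPKM in KO and 0.985 FPKM in WT, and none was lower, beside 2.77% and 0.82% of all compared symbols. At 3 weeks 0 of 4 reached 2-fold on the log2(FPKM + 1) scale (median 0.74), beside 7.97% higher and 8.19% lower of all compared symbols. The pseudocount decides this for a pair of them, since the FPKM ratio itself was 2.29 for Tlr4 (1.73 to 3.06), at 4.40 FPKM in KO and 1.92 FPKM in WT, and 2.34 for Tlr6 (1.95 to 2.81), at 5.02 FPKM in KO and 2.15 FPKM in WT.

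**Figure D5:**
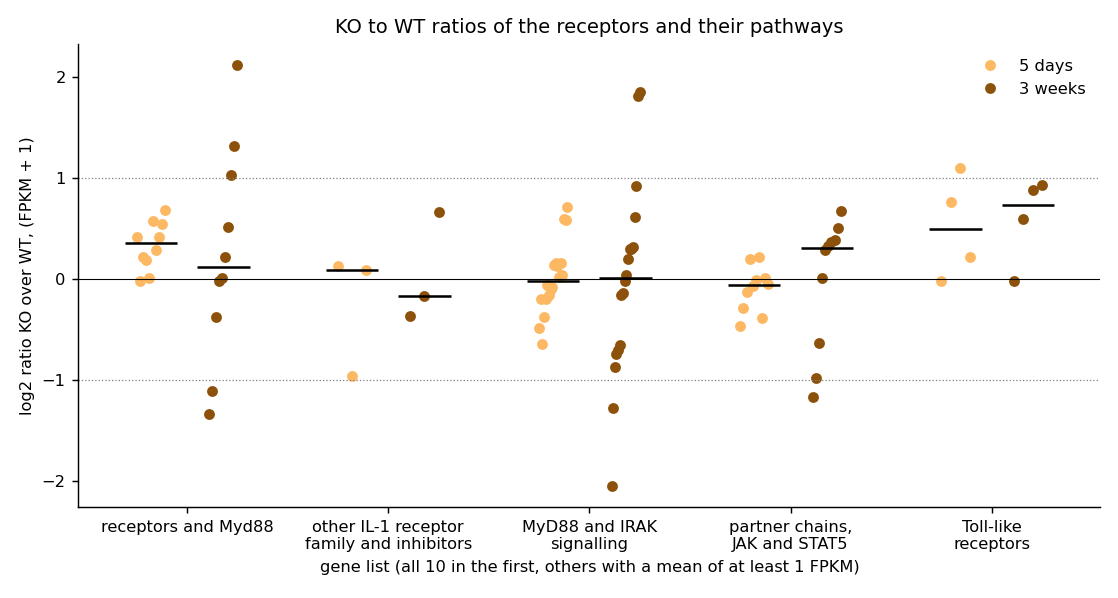
Log2 ratio of KO over WT on the log2(FPKM + 1) scale (vertical axis) for each gene of 5 lists (horizontal axis) at 5 days (light points) and 3 weeks (dark points), with the list median as a black bar and dotted lines at 2-fold. At 3 weeks the receptors reach from -1.33 to 2.12 around a median of 0.12, and the signalling genes from -2.05 to 1.85 around 0.01.

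Markers of other cells that carry ST2 or the IL-25 receptor were measured as well. The 11 mast cell and basophil genes summed to 25.7 FPKM in KO 5-day, 15.0 in WT 5-day, 19.9 in KO 3-week and 10.6 in WT 3-week. Most of this was Cpa3, at 10.2 FPKM in both 3-week libraries, and the basophil gene Mcpt8, at 7.93 FPKM in KO 3-week and 0.266 FPKM in WT 3-week. Of these, Ms4a2, Mcpt4, Tpsb2, Tpsab1 and Prss34 were listed at 0 in all 4 libraries. Kit stood at 0.793 FPKM in KO 5-day and 0.116 in WT 5-day, from about 90 and 12 reads, and at 0.130 in KO 3-week and 0 in WT 3-week. Hdc stood at 0.101 FPKM in KO 5-day, 0.242 in WT 5-day, 0.424 in KO 3-week and 0.0582 in WT 3-week. Only Cpa3 and Mcpt8 were compared. Mcpt8 was already at least 2-fold higher at 5 days, with 2.63 FPKM in KO against 0.0754 FPKM in WT, and 0 were lower. All compared symbols gave 2.77% higher and 0.82% lower there. The 3-week contrast again had Mcpt8 higher and 0 lower, beside 7.97% and 8.19% of all compared symbols. Without the filter Cma1 was called higher at 3 weeks too, with 1.16 FPKM in KO against 0.0484 FPKM in WT. The 8 genes of the type 2 innate lymphoid list, most of whose sum is Il2ra, which activated T cells also express, summed to 298 FPKM in KO 5-day, 351 in WT 5-day, 199 in KO 3-week and 708 in WT 3-week. Of the 6 compared, 2 were higher (Klrg1 and Calca) and 2 lower (Pparg and Il2ra) at 3 weeks, beside the 7.97% and 8.19% of all compared symbols. At 5 days 2 of the 6 were higher, again Klrg1 and Calca, and 0 lower, beside 2.77% and 0.82%. The 5-day values of Calca rest on about 25 reads in KO and 5 in WT. The lists of myeloid (9 symbols), dendritic (7) and B cell (5) genes summed to at most 20.3, 11.4 and 2.72 FPKM in any library. In the longer culture the myeloid sum was 20.3 FPKM in KO and 3.58 FPKM in WT, and the dendritic sum 11.4 and 2.39 FPKM. Each of these lists had 2 compared genes. Of them, Cd68, Itgam and Itgax were at least 2-fold higher in KO at 3 weeks and 0 were lower. All compared symbols gave 7.97% and 8.19%. Cd68 stood at 12.9 FPKM in KO and 3.25 in WT, Itgam at 4.75 and 0.0283, and Itgax at 8.63 and 0.0497. Cd14, not compared, stood at 2.03 and 0.0978. Not all listed genes followed, with Lyz2 at 0 and 0.0989, Zbtb46 at 0.0510 and 0.0699, and Csf1r at 0 in both. Foxp3, which defines regulatory T cells, a cell type that can also carry ST2, stood at 1.66 FPKM in KO 5-day, 3.61 in WT 5-day, 0.133 in KO 3-week and 0.384 in WT 3-week. The other gene of that list, Ikzf2, went the other way in the longer culture, at 0.557 FPKM in KO 5-day, 1.06 in WT 5-day, 2.25 in KO 3-week and 0.0824 in WT 3-week. The part of these cells in the receptor values was not tested.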

How the data were processed

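Per the labels' protocols, TRIzol was used for RNA and the TruSeq Stranded mRNA kit for libraries. The authors deposited 1 file a library of gene symbols with FPKM values, a unit read from the values and from the tools in the submitters' processing notes, which are Cufflinks 2.0.2, TopHat 1.3.2 and Bowtie 0.12.8, with build mm10. Neither the annotation nor the use of strand is stated in the labels. FPKM is relative to each library, so very abundant genes can shift all others.

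Lines of 1 symbol were summed (240 symbols, 702 lines), and 1 symbol with a value that is no number was left out. A symbol was compared at a mean of at least 1 FPKM over the 4 libraries (10973 symbols, 9 of the 10 members), while counts over the members use all 10. Ratios were log2((KO + 1)/(WT + 1)), which understates differences of low genes, and a size of at least 1 was called at least 2-fold. Depth was inferred from low values, of which 59.2% to 61.6% lay within 0.05 of a whole number of reads, against 10% if evenly spread. Intervals used the shortest basic coding transcript of GENCODE M21, less 200 bases, which widens them. An additive model of genotype and culture was not fitted. The steps were checked on simulated reads.

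Named genes were the members, list genes, Men1, genes within 500000 bases of the chromosome 1 cluster, and the 3 nearest profiles of the 3 members of widest range; single genes named for the check of the cell type were chosen with values known. The members and lists were chosen with earlier results of these data known. Alternatives were other pseudocounts, filters, scalings and the highest line of a symbol. The IL-36 ligand genes were found under their older symbols, and 1 listed myeloid symbol had no match. Python 3.11.15, numpy 2.4.6, pandas 2.3.3 and scipy 1.17.1 were used.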

Additional observations from a re-analysis of the deposited data

Results flagged for a closer look

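Il1rl1 drew attention because its genotype ratio pointed in opposite directions at the 2 times. The KO to WT log2 ratio was 0.42 at 5 days and -1.33 at 3 weeks, a difference of -1.75. Levels were 1.74 FPKM in KO and 1.05 FPKM in WT at 5 days, and 5.32 FPKM in KO and 14.9 FPKM in WT at 3 weeks. The counting interval of the 5-day ratio included 1 (0.961 to 2.93), so no direction is read at that time. That interval rests on reads inferred from the shortest coding transcript, a setting that widens it. The difference was not tested, since each group held 1 library.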

How the results depend on the processing

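The 5 members called at 3 weeks (Il18r1, Il18rap and Crlf2 higher, Il1rl1 and Il17rb lower in KO) kept their calls with a pseudocount of 0.1 FPKM, with the highest line of a symbol and under median-of-ratios, upper-quartile and million-sum scaling. With a pseudocount of 5 FPKM, which is above the level of several of them, 1 member stayed higher (Il18rap) and 0 lower. Under a filter at a mean of 5 FPKM, which leaves out Il18r1 and Il17rb, 2 were higher and 1 lower (Il1rl1). For the difference between the times, 1 in place of 2 members was lower both with a pseudocount of 5 FPKM and under that filter, Il1rl1. Between cultures in KO, a pseudocount of 5 FPKM left 1 member higher (Il18rap) and 0 lower, against 2 and 1, and the filter left 2 and 0. At 5 days no member was called under any alternative run. No called member reversed its direction. Over all symbols, the 394 called at 5 days became 642 with a pseudocount of 0.1 and 178 with 5. With 5, the 1773 called at 3 weeks became 898, the 1013 called on the difference 477, the 959 between cultures in KO 468 and the 643 in WT 276, and the last was 421 under the filter at 5 FPKM. Upper-quartile scaling gave 66.1% of calls higher at 3 weeks (49.3% as deposited) and 59.5% on the difference (49.1% as deposited). Leaving out short RNA genes, chosen after seeing the data, gave 318 calls at 5 days and 1678 at 3 weeks. No paired analysis was possible because each group held 1 library and the labels give no replicate numbers. Depth limits Il1r1 and the KO 3-week value of Il17rb, which rests on about 4 reads.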
